A study of Mus musculus with 23 samples.

Results

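Solute carriers are membrane proteins that move nutrients, ions, metals and metabolites across the plasma membrane and the membranes of organelles. The genes described here were the expressed solute carriers of mouse bone marrow-derived macrophages (BMDMs), macrophages grown in culture from bone marrow. They were chosen as protein-coding genes whose symbol has the form Slc, a family number, a and a member number, and whose mean size-factor-adjusted RPKM (nRPKM, a level per gene length) over all 23 libraries was 1 or more. Of 342 protein-coding genes with such a symbol, 144 met this level, in 42 families. The members just inside the limit were Slc39a4, Slc39a10 and Slc9a7 (means of 1.003, 1.07 and 1.07 nRPKM), and the genes just outside it were Slc19a1, Slc25a40 and Slc6a4 (0.873, 0.872 and 0.798 nRPKM). The mean level chose the members, so it is given as a description; the comparisons between groups were not used in choosing them. All 144 were tested, 16 of them with a mean below 1 nRPKM in at least 1 group. Such a member met the limit through the groups where it was high, so its differences from those groups are not independent of the rule.

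Polyadenylated RNA was sequenced from BMDMs whose labels give a wild-type (WT) or a Stk40 knockout (KO) genotype. Stk40 is a kinase-like protein without kinase activity that works with the ubiquitin ligase COP1. Cells were untreated (T0) or had been given lipopolysaccharide (LPS), the cell wall component of Gram-negative bacteria sensed by Toll-like receptor 4, for the times T6, T16 and T32, whose unit the labels do not give. WT at T16 had 2 libraries, and the other 7 of the 8 groups had 3. Strain, age and the knockout allele are not in the labels, nor whether libraries came from separate mice or cultures. Since 1 WT library per time point carried Y-linked transcripts and the others did not, the WT libraries of a group did not all come from 1 animal. No KO-labelled library carried them, and the spread between KO-labelled libraries, which the p-values also rest on, may be technical. Libraries held 19455080 to 44097733 counts, of which the members took 1.21% to 1.63%. Stk40 RNA itself was not lower in libraries labelled KO (11.7 to 14 nRPKM at T0 against 8.85 to 11.9 in WT; log2 difference 0.23, edgeR adjusted p = 0.71), so the genotype rests on the labels. At the later times all KO-labelled libraries lay above all WT ones: 86.4 to 94.6 against 67.0 to 80.6 at T6, 35.2 to 38.2 against 21.6 to 32.8 at T16 and 22.9 to 24.2 against 15.4 to 22.2 at T32. None of these differences was called (edgeR adjusted p = 0.64, 0.12 and 0.21). Of 10 macrophage markers 9 could be matched, and they summed to 8841 to 18491 nRPKM per library. WT T16 replicate 2 stood apart, with 17.4% of its counts in its 10 most abundant genes against 9.57% to 14.9% elsewhere. Mitochondrially encoded genes took 0.355% of the counts in KO T0 replicate 1 and 1.38% to 1.82% in the remaining untreated libraries.

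Macrophages that meet LPS switch to aerobic glycolysis, take up arginine for nitric oxide synthase, hold iron back from microbes and export lactate, and each of these steps passes through a carrier. Members of the Slc7 family that serve as light chains reach the cell surface only when joined to the heavy chain encoded by Slc3a2. Most Slc25 carriers sit in the inner mitochondrial membrane, and the whole Slc25 family is counted here as mitochondrial carriers. Slc39 proteins bring zinc and other metals into the cytosol, and Slc30 proteins carry zinc out of it. Grouped by substrate, the members comprised 31 mitochondrial carriers, 26 carriers of metals and haem, 23 of amino acids and peptides, 18 of ions, bicarbonate and phosphate, 11 of sugars, 10 of nucleosides, vitamins and choline, 7 of monocarboxylates, 6 of nucleotide sugars and other ER or Golgi substrates, 5 of organic ions and 4 of lipids and bile acids. The other 3 carry the name but are not transporters: Slc9a3r1 (the scaffold NHERF1), Slc7a6os and Slc4a1ap.

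Levels spread widely. Over all libraries the members' means ran from 1.003 to 504 nRPKM with a median of 9.02, and 10 members reached 100 nRPKM. These were Slc15a3 (504), Slc31a2 (234), Slc3a2 (225), Slc2a6 (216), Slc48a1 (182), Slc11a1 (177), Slc28a2 (146), Slc7a8 (134), Slc6a6 (114) and Slc25a3 (108 nRPKM). Several of them are proteins of lysosomes or phagosomes: Slc15a3 moves peptides and histidine, Slc2a6 hexoses, Slc48a1 haem and Slc11a1 divalent metals.

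At T6, most of the set differed from T0 in WT cells. No untreated libraries were taken at T6, T16 or T32, so LPS and time since T0 cannot be told apart. LPS calls and changes with LPS, here and below, are differences from T0. Of the 144 members 51 rose and 54 fell, or 72.9%, where 59.1% of all 15782 genes tested (27.3% higher and 31.9% lower) and 67.3% of the 9438 protein-coding genes with a mean of 1 nRPKM or more were called (edgeR adjusted p under 0.05). The median log2 change was 0.02 for the members and −0.14 over all genes tested. At T16, 51 rose and 28 fell (54.9%; all genes 36.0% called, 18.8% higher and 17.2% lower), and at T32, 46 rose and 29 fell (52.1%; all genes 46.4%, 24.5% higher and 21.9% lower); these comparisons share the T0 libraries with that at T6. The medians were 0.15 and 0.23 against −0.01 and 0.00 over all genes tested. The share among expressed protein-coding genes was computed for WT at T6 only. All other shares given for comparison are over all genes tested, genes of low level included. Whether an excess over them is particular to carriers was not tested. When libraries were scaled by their total counts instead of by TMM, the median of all genes moved to −0.94 at T6, −0.45 at T16 and −0.31 at T32, and the members divided as 27 higher and 83 lower, 30 and 54, and 26 and 52. Directions below are relative to TMM scaling. In bulk RNA, fewer cells of a type and less RNA per cell cannot be told apart.

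**Figure D1:**
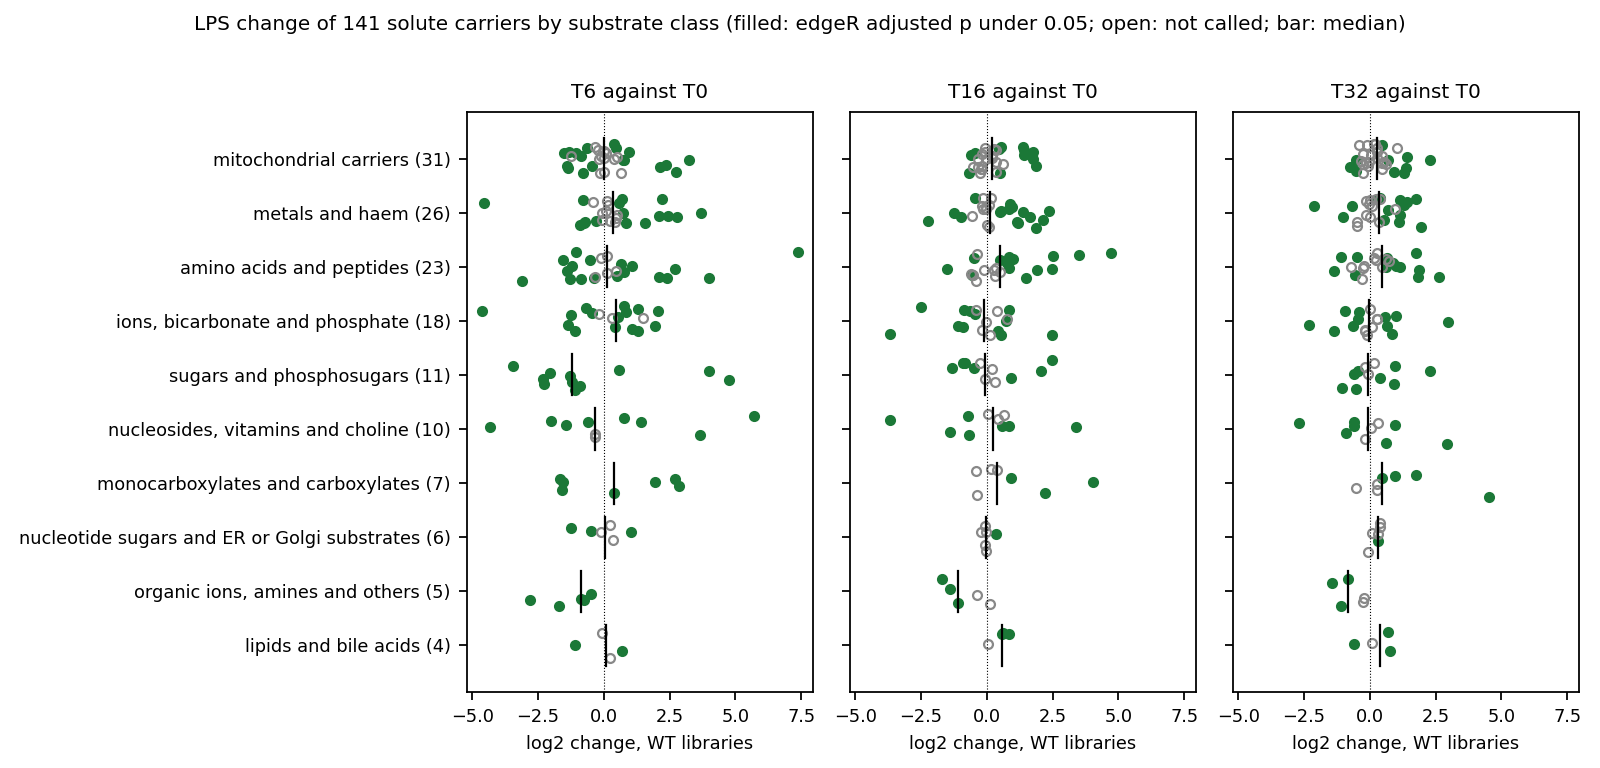
Log2 change of each solute carrier gene from T0 in libraries labelled WT (horizontal axis) by substrate class (vertical axis, number of members in brackets) at T6, T16 and T32. Filled points passed the edgeR test, open points did not, and the bar is the class median. At T6 all 11 sugar carriers are filled, 8 of them left of 0.

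Carriers of sugars changed without exception at T6, and in opposite directions: 3 of 11 rose and 8 fell. Slc2a1 (GLUT1, the main glucose importer of activated macrophages) was at 4.24, 5.60 and 4.75 nRPKM in the untreated WT libraries and at 92.0, 87.5 and 68.9 at T6. Slc2a6 (GLUT6, a lysosomal hexose carrier) went from 25.4, 24.8 and 15.6 to 752, 588 and 531 nRPKM. For both genes every LPS library at T6 lay more than 10-fold above every untreated one, and they rose by 4.01 ± 0.22 and 4.75 ± 0.26 on the log2 scale (SE; edgeR adjusted p = 6.9e-12 and 7.6e-12). Slc2a6 was lower again at the later times, at 67.3 and 117 at T16 and 37.6, 38.0 and 47.8 nRPKM at T32, where it still stood 0.92 ± 0.23 above T0, while Slc2a1 stood 2.29 ± 0.20 above it (edgeR adjusted p = 0.0027 and 4.2e-08). Among those that fell were Slc2a3 (GLUT3), Slc2a8 (GLUT8), the hexose carrier Slc50a1 and the glucose 6-phosphate carrier of the ER, Slc37a4. Slc37a2, an ER sugar-phosphate exchanger abundant in macrophages, went from 44.9, 43.7 and 44.1 to 10, 7.70 and 11.5 nRPKM, and its relative Slc37a1 from 3.62, 3.50 and 2.80 to 0.669, 0.960 and 0.480. They fell by 2.27 ± 0.15 and 2.33 ± 0.22, with no overlap between the groups (edgeR adjusted p = 6e-11 and 2.3e-08). Slc45a4 fell by 3.45 ± 0.15 at T6, from 6.79, 6.23 and 4.88 to 0.608, 0.530 and 0.588 nRPKM, and was back at 7.40 and 7.49 at T16 (edgeR adjusted p = 6.3e-13 and 0.12).

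**Figure D2:**
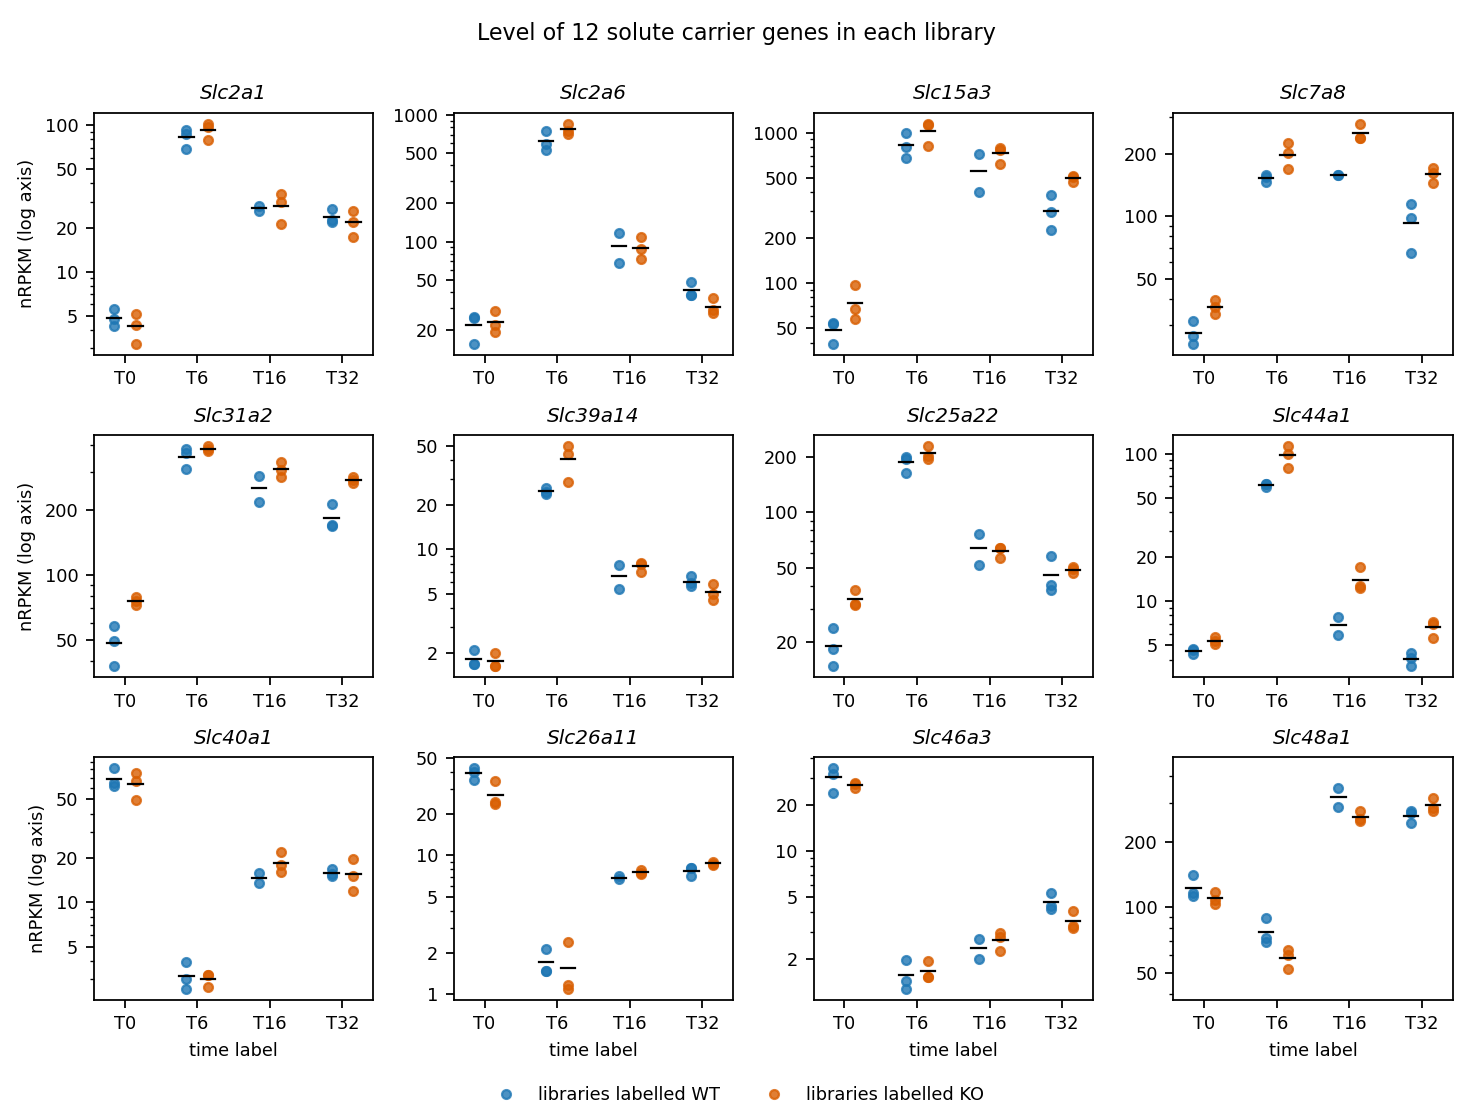
nRPKM (log axis) of 12 members in each library at T0, T6, T16 and T32 (horizontal axis). Points are libraries labelled WT (blue) or KO (orange) and bars are group means; Slc2a1, Slc2a6 and Slc44a1 are highest at T6 in both genotypes, and Slc40a1, Slc26a11 and Slc46a3 lowest.

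The 7 carriers of monocarboxylates and other carboxylates all changed at T6, 4 upward and 3 downward. Slc16a3 (MCT4, the lactate exporter of glycolytic cells) went from 8.26, 9.86 and 7.10 to 65.2, 71.9 and 39.0 nRPKM, and was still at 27.9, 27.6 and 29.3 at T32. Slc16a1 (MCT1) went from 1.41, 1.65 and 1.92 to 13.8, 14.9 and 10.1 and was at 1.69 and 0.847 by T16. Both were far above every untreated library at T6, but only Slc16a3 was called at all 3 times: it rose by 2.72 ± 0.27, 2.21 ± 0.29 and 1.76 ± 0.26 (edgeR adjusted p = 4.4e-08, 5.3e-06 and 2.8e-05). Slc16a1 rose by 2.87 ± 0.25 at T6 and differed from T0 by -0.39 ± 0.28 and -0.54 ± 0.24 later (edgeR adjusted p = 6.2e-09, 0.28 and 0.078). Slc13a3 (NaDC3, which imports succinate and other dicarboxylates) went from 2.65, 2.48 and 0.831 nRPKM at T0 to 9.85, 10.5 and 3.86 at T6, 21.8 and 43.1 at T16 and 26.2, 53.5 and 55.8 at T32. Its libraries at T16 and T32 lay above all at T6 but overlapped each other, and LPS times were not tested against each other. Its log2 change at T32 of 4.53 ± 0.46 was the largest of any member at that time (edgeR adjusted p = 2.2e-07). Among the chaperones that bring these carriers to the membrane, Bsg (basigin, for MCT1 and MCT4) rose by 0.35 at T6 and Emb (embigin) was at 0.05 at T6, with a fall of 1.01 at T32 (edgeR adjusted p = 0.043, 0.87 and 0.0022). The chaperones were not examined with library totals, under which the median of all genes at T6 was −0.94. The direction of so small a rise as that of Bsg therefore holds for TMM scaling only.

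Of 23 carriers of amino acids and peptides, 9 rose and 9 fell at T6. Slc7a2 (CAT2, which imports arginine) had the largest change of all members at T6. Below 1 nRPKM at T0 and T32 in WT, it met the limit through the libraries where it was high, so this rank is partly set by the rule. It was barely present in untreated WT libraries (0.248, 0.194 and 0.196 nRPKM), reached 32.9, 37.9 and 40.7 at T6 and declined to 7.07 and 4.19 at T16 and 0.814, 0.614 and 0.912 at T32. Every LPS library exceeded every untreated one, by log2 changes of 7.36 ± 0.32, 4.72 ± 0.30 and 1.88 ± 0.27 (edgeR adjusted p = 5.1e-13, 5e-10 and 1.7e-05). Its relative Slc7a1 (CAT1) moved far less, from 0.966, 1.13 and 1.45 to 1.56, 1.87 and 2.45 nRPKM, a rise of 0.64 ± 0.27 (edgeR adjusted p = 0.047) that became -0.16 with library totals and was not called without any 1 of 9 libraries, for example 0.44 without WT T6 replicate 3 (edgeR adjusted p = 0.21). Slc15a3 (PHT2, the endolysosomal peptide and histidine carrier) was the most abundant member, at 52.9, 54.0 and 39.3 nRPKM at T0 and 999, 673 and 795 at T6, and it rose by 4.0 ± 0.27 (edgeR adjusted p = 1.2e-10). Of its exons 28.1% overlap the opposite-strand gene Tmem132a, and the library kit did not mark strand, so part of its counts cannot be told from that gene's. Slc15a3 was among 10 members with 10% or more of their exons overlapped by another gene on either strand. Its relative Slc15a4 (PHT1) was less changed, at 34.3, 31.1 and 27.9 against 29.8, 21.8 and 23.8 nRPKM, and its change of -0.39 ± 0.15 at T6 (edgeR adjusted p = 0.032) was not called without WT T0 replicate 1 or 2 or WT T6 replicate 2 or 3 (-0.29, -0.38, -0.29 and -0.35).

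Slc1a5, Slc43a2 and Slc36a1 fell at T6. Slc1a5 (ASCT2, which exchanges glutamine) went from 13.9, 14.1 and 13.6 nRPKM to 5.30, 7.98 and 5.63 at T6 and 5.67, 5.68 and 4.54 at T32. No LPS library reached an untreated one, and Slc1a5 fell by 1.23 ± 0.19 and 1.38 ± 0.19 (edgeR adjusted p = 1.7e-05 and 1.2e-05). Slc43a2 (LAT4) dropped at T6 only, from 89.3, 90.7 and 68.3 to 9.35, 12.4 and 8.74 nRPKM, and was again at 66.6 and 62.6 at T16 (log2 changes -3.11 ± 0.17 and -0.37 ± 0.17; edgeR adjusted p = 6.6e-12 and 0.11). Slc36a1 (PAT1, a lysosomal exporter linked to mTORC1) fell and then exceeded its starting level. Its values were 17.2, 13.6 and 14.1 nRPKM at T0, 5.11, 4.40 and 6.71 at T6 and 31.1 and 20.8 at T16, and it fell by 1.55 ± 0.21 and later rose by 0.78 ± 0.22 (edgeR adjusted p = 1.8e-06 and 0.0087; 0.45 and 0.2 without WT T16 replicate 1). Slc38a2 (SNAT2) differed from T0 by -0.33 ± 0.23, without a call (edgeR adjusted p = 0.23).

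The heavy chain Slc3a2 (4F2hc) and its light chains changed unequally. Slc3a2 was at 157, 127 and 158 nRPKM at T0 and 219, 209.7 and 233 at T6, a rise of 0.50 ± 0.19 (edgeR adjusted p = 0.03) that became -0.30 with library totals and was not called without WT T0 replicate 2, WT T6 replicate 1 or WT T6 replicate 3 (0.41, 0.50 and 0.46). The summed nRPKM of the light chains Slc7a5, Slc7a6, Slc7a7, Slc7a8, Slc7a10 and Slc7a11 went from 39.4 ± 4.34 to 190.4 ± 11.1 (SD, n = 3 each). The ratio of light chains to heavy chain went from 0.272 ± 0.0639 at T0 to 0.863 ± 0.0485 at T6 and was 0.723 ± 0.0673 at T32 (SD, n = 3 each). Slc7a8 (LAT2) and Slc7a7 (y+LAT1, an arginine and lysine exporter) made up most of that sum in every group: Slc7a8 gave 69.7% at T0 and 80.3% at T6, and Slc7a7 17.3% and 16%. Slc7a5 (LAT1), the light chain best known from T cells and tumours, gave 4.73% at T0 and 1.74% at T6. Slc7a8 went from 26.6, 31.5 and 24.3 to 154, 147 and 157 nRPKM and Slc7a7 from 9.0, 6.78 and 4.73 to 40.3, 25.1 and 26.8. They rose by 2.39 ± 0.17 and 2.09 ± 0.26, without overlap (edgeR adjusted p = 2.9e-10 and 1e-06). Slc7a11 (xCT, the cystine importer) rose by 2.72 ± 0.24 but from a low level, 0.379, 0.307 and 0.345 to 2.36, 2.65 and 2.19 nRPKM (edgeR adjusted p = 6.2e-09). It met the limit of 1 nRPKM only through the groups at T6 and T16, so its rise is partly set by the rule. Slc7a6 (y+LAT2) went the other way, from 2.66, 2.70 and 3.29 to 1.15, 1.20 and 1.46, and fell by 1.27 ± 0.22 (edgeR adjusted p = 5.1e-05). Slc7a5 rose by 0.76 ± 0.20 (edgeR adjusted p = 0.0029), a direction that turned to -0.05 with library totals.

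**Figure D3:**
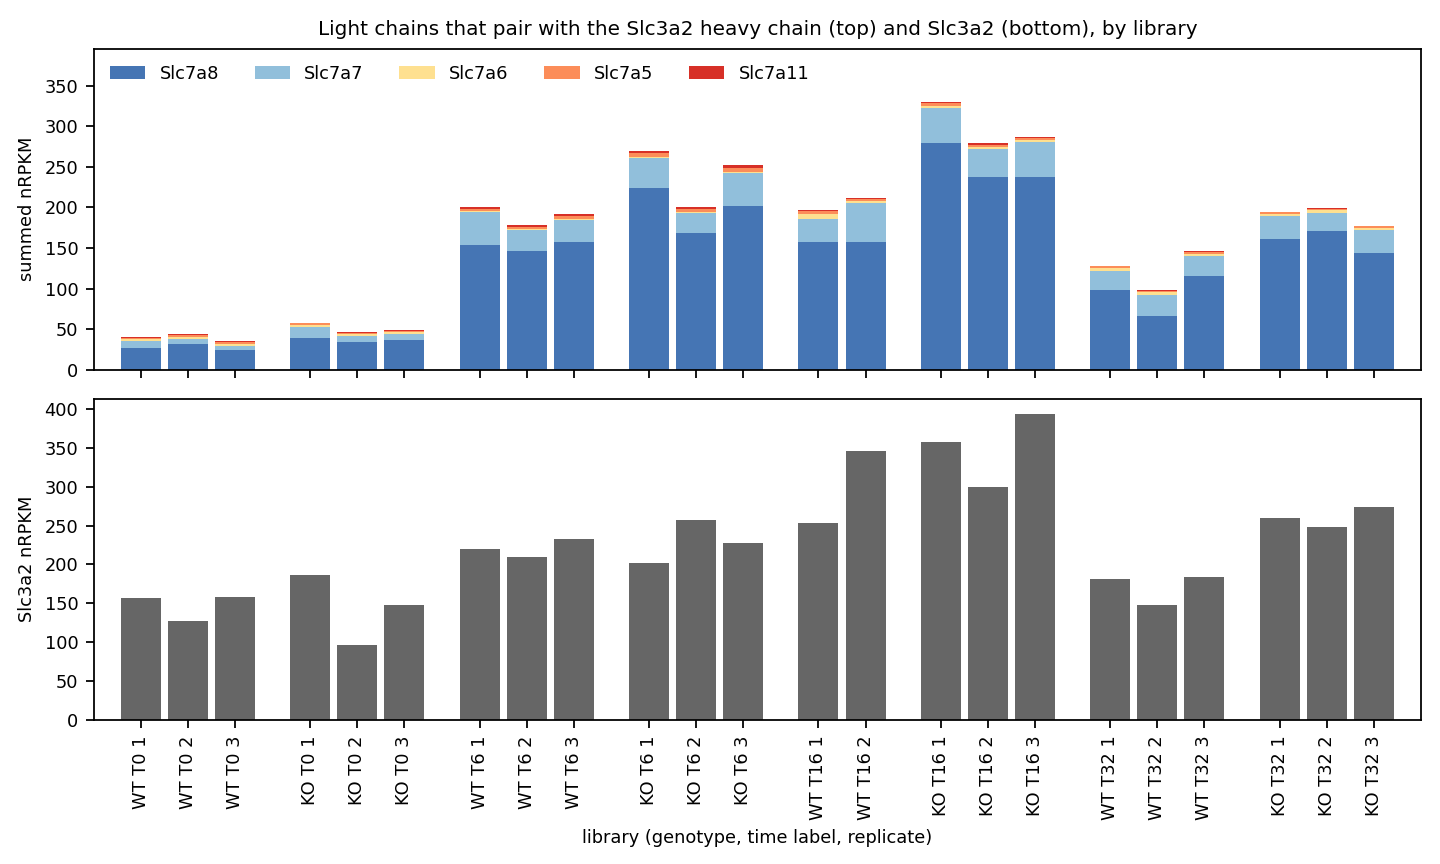
nRPKM in each library (bars, both axes from 0) of 5 light chains stacked (top) and of their heavy chain Slc3a2 (bottom), with libraries by time and genotype on the horizontal axis. Slc7a8 is the largest share of every stack, and the stacks at T6, T16 and T32 are taller than those at T0.

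More carriers of metals and haem rose than fell at each time. Among the 26 carriers of metals and haem, 10 rose and 6 fell at T6, 12 rose and 4 fell at T16, and 11 rose and 3 fell at T32. Slc40a1 (ferroportin, the only known cellular iron exporter) was at 81.5, 64.8 and 62.0 nRPKM at T0, 2.59, 2.99 and 3.94 at T6 and 15.9 and 13.5 at T16. It fell by 4.54 ± 0.22 at T6 and remained 2.13 ± 0.20 below T0 at T32 (edgeR adjusted p = 2e-12 and 7.7e-08). The iron importers moved oppositely. Slc11a2 (DMT1) went from 15.0, 13.4 and 11.9 to 63.1, 63.3 and 55.3 nRPKM, and Slc39a14 (ZIP14, which imports zinc and non-transferrin iron) from 1.67, 2.08 and 1.67 to 26.2, 24.3 and 23.7. They rose by 2.09 ± 0.12 and 3.69 ± 0.20, and all LPS libraries at T6 lay above the untreated ones (edgeR adjusted p = 1.2e-11 and 6.4e-12).

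Slc11a1 and Slc48a1, both proteins of the phagosome, had risen by T16. Slc11a1 (NRAMP1, which pumps iron and manganese out of the phagosome) was at 111, 78.3 and 82.7 nRPKM at T0 and 115, 102 and 99.5 at T6, and at 251 and 325 at T16 and 217, 213 and 229 at T32. The groups at T0 and T6 overlapped (0.13 ± 0.16, edgeR adjusted p = 0.5), and the later ones lay above both, with rises of 1.65 ± 0.18 and 1.28 ± 0.17 (edgeR adjusted p = 6.5e-07 and 4.9e-06). Slc48a1 (HRG1, which carries haem out of the phagolysosome) fell by 0.76 ± 0.13 at T6 and then rose, from 140.2, 116 and 112 at T0 to 288 and 353 nRPKM at T16 (1.37 ± 0.14; edgeR adjusted p = 4.5e-05 and 3.4e-07). The copper importer Slc31a1 (CTR1) and its relative Slc31a2 (CTR2) were higher at all times. Slc31a1 went from 21.0, 18.5 and 17.2 to 111, 84.7 and 83.0 nRPKM at T6, and Slc31a2 from 58.0, 49.5 and 37.7 to 367, 382 and 309. They rose by 2.22 ± 0.18 and 2.78 ± 0.16, and at T32 still stood 1.42 ± 0.17 and 1.94 ± 0.15 above T0 (edgeR adjusted p = 1.8e-09, 1e-11, 2.6e-06 and 7.6e-09). Among the zinc transporters, Slc30a4 (ZnT4) was the single member of the whole set to rise at T6 and fall at both later times, from 0.812, 0.880 and 1.10 nRPKM to 5.10, 3.91 and 6.94 and then 0.617 and 0.163 at T16. Its changes were 2.43 ± 0.34 and -1.23 ± 0.39 (edgeR adjusted p = 3.6e-06 and 0.019), the second without a call when WT T16 replicate 2 was left out (-0.60, edgeR adjusted p = 0.24), when WT T0 replicate 3 was (-1.08), or within the T0 and T16 libraries of WT alone, and at -2.54 without WT T16 replicate 1. The exporter Slc30a1 (ZnT1) was called at no time (0.24 ± 0.22 at T6, edgeR adjusted p = 0.37).

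Among the 10 carriers of nucleosides, vitamins and choline, 4 rose and 4 fell at T6, and 1 of them had the second-largest rise of all members. Slc28a2 (CNT2, a concentrative purine nucleoside importer) was at 5.98, 4.40 and 4.94 nRPKM at T0, 312, 243 and 287 at T6, 44.2 and 63.9 at T16 and 32.2, 25.7 and 59.0 at T32. It rose by 5.70 ± 0.31, 3.39 ± 0.29 and 2.94 ± 0.27, every LPS library lying above every untreated one (edgeR adjusted p = 7.2e-12, 2.8e-08 and 8.1e-08). A neighbouring close copy, Gm14085 (also named Slc28a2b), was at 0.058 to 0.313 nRPKM, and how the authors' counting split reads between the pair is not stated. Slc44a1 (CTL1, a choline importer) peaked sharply, from 4.72, 4.68 and 4.36 to 61.7, 59.8 and 62.1 nRPKM at T6 and back to 4.47, 4.10 and 3.62 at T32, with changes of 3.65 ± 0.17 and -0.17 ± 0.15 (edgeR adjusted p = 8.3e-13 and 0.37). Slc46a3, a lysosomal carrier, went from 34.4, 31.8 and 24.0 to 1.98, 1.28 and 1.43 nRPKM and recovered only to 4.39, 5.34 and 4.21 at T32. It fell by 4.33 ± 0.20 at T6 and 2.68 ± 0.18 at T32, where it was the member furthest below T0 (edgeR adjusted p = 1.2e-12 and 1.3e-09). The folate carrier Slc46a1 and the thiamine carrier Slc19a2 also fell at T6, by 1.43 ± 0.23 and 2.0 ± 0.23 (edgeR adjusted p = 2e-05 and 2.7e-07), while the lysosomal nucleoside carrier Slc29a3 was at -0.33 ± 0.21 without a call (edgeR adjusted p = 0.18).

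Mitochondrial carriers, the largest class, had a median log2 change of 0.01 at T6, with 9 of 31 higher, 9 lower and 13 not called. Slc25a22 (a glutamate carrier) stood out with 18.2, 23.7 and 14.7 nRPKM at T0 and 200.4, 195 and 164 at T6, a rise of 3.22 ± 0.19 (edgeR adjusted p = 2.6e-11). Slc25a12 (the aspartate and glutamate carrier aralar) went from 3.22, 3.32 and 3.17 to 27.2, 18.3 and 24.2, and rose by 2.76 ± 0.18 (edgeR adjusted p = 5.4e-11). Its close relative Slc25a13 (citrin) fell by 1.05 ± 0.27, from 2.32, 2.18 and 2.94 to 1.40, 0.869 and 1.52 nRPKM (edgeR adjusted p = 0.0024). For all 3 genes the groups were apart. The citrate carrier Slc25a1, which feeds cytosolic acetyl-CoA, was not called at any time in WT (0.40 ± 0.18 at T6, edgeR adjusted p = 0.06). The carnitine carrier Slc25a20 of fatty acid oxidation fell by 0.45 ± 0.11 at T6 (edgeR adjusted p = 0.0016), from 21.1, 18.1 and 18.4 to 13.8, 15.5 and 15.3 nRPKM. The ADP/ATP carrier Slc25a5 (ANT2) rose late, by 1.85 ± 0.39 and 2.28 ± 0.37 (edgeR adjusted p = 0.00092 and 5.5e-05). Its values spread within groups, at 11.2, 3.62 and 11.6 nRPKM in the T6 libraries and 23.8, 27.5 and 26.0 at T32, and it has many processed pseudogenes, so its counts are uncertain. The phosphate carrier Slc25a3, the most abundant of the class, was lower at T16 only, at 150.0, 145 and 136 nRPKM at T0 and 80.8 and 112 at T16 (-0.60 ± 0.21, edgeR adjusted p = 0.03). Mitoferrin 1, Slc25a37, which brings iron into mitochondria, rose by 0.94 ± 0.19 at T6 (edgeR adjusted p = 0.00021), a change of 0.14 with library totals.

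Ion carriers were split, with 9 of 18 higher and 6 lower at T6. Slc26a11, a sulphate and chloride carrier of lysosomes and the cell surface, had the largest fall of all members at T6. It went from 42.4, 39.8 and 34.9 to 1.49, 2.12 and 1.48 nRPKM and was at 8.10, 7.12 and 8.08 at T32, with changes of -4.62 ± 0.24 and -2.32 ± 0.21 (edgeR adjusted p = 3.5e-12 and 5.3e-08). Slc9a9 (NHE9, an endosomal sodium/proton exchanger) was lowest at T16 instead: 41.2, 39.1 and 26.2 nRPKM at T0, 16.3, 15.8 and 11.7 at T6, 2.79 and 2.80 at T16 and 12, 15.8 and 12.8 at T32. At T16 it fell by 3.68 ± 0.26, and at T32 it fell by 1.38 ± 0.20 (edgeR adjusted p = 1.6e-09 and 1.4e-05). The bicarbonate importer Slc4a7 (NBCn1), needed for phagosome acidification, rose by 2.04 ± 0.39, and the potassium-chloride cotransporter Slc12a4 (KCC1) rose by 1.93 ± 0.16 (edgeR adjusted p = 0.00015 and 2.1e-09). Their levels went from 1.22, 1.17 and 1.5 to 4.68, 4.17 and 8.18 and from 11.7, 12.9 and 10.4 to 49.6, 50.9 and 41.1 nRPKM. The phosphate importer Slc20a1 (PIT1) fell by 1.09 ± 0.21 (edgeR adjusted p = 0.00017). Slc8a1, a sodium/calcium exchanger, was at 0.662, 1.19 and 0.879 nRPKM at T0 and 7.84, 5.66 and 7.97 at T32, a rise of 2.98 ± 0.71 (edgeR adjusted p = 0.0021); its rise of 2.48 ± 0.74 at T16 was 0.92 and not called without WT T16 replicate 1 (edgeR adjusted p = 0.013 and 0.47).

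In the smaller classes, all 5 carriers of organic ions fell at T6. One of them, Slc22a18, was among the members furthest below T0 at T16 (-1.72 ± 0.25, edgeR adjusted p = 2.3e-05). The vesicular nucleotide carrier Slc17a9 (VNUT), which loads ATP for secretion, went from 4.74, 3.55 and 4.03 to 0.560, 0.648 and 0.641 nRPKM, and the lysosomal sialic acid exporter Slc17a5 (sialin) from 16.6, 17.1 and 17.4 to 5.76, 4.79 and 5.90. They fell by 2.82 ± 0.25 and 1.72 ± 0.12, with the groups apart (edgeR adjusted p = 5.6e-09 and 3.9e-10). Of the Golgi nucleotide sugar carriers, Slc35a1 (for CMP-sialic acid) fell by 1.26 ± 0.13 and Slc35a3 (for UDP-N-acetylglucosamine) rose by 1.05 ± 0.23 (edgeR adjusted p = 1e-07 and 0.0005), the latter 0.24 with library totals. The fatty acid importer Slc27a1 (FATP1) fell by 1.09 ± 0.17, from 76.3, 61.5 and 82.5 to 38.5, 33.0 and 38.3 nRPKM (edgeR adjusted p = 1.1e-05).

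By the course of their calls in WT, 25 members were higher at all 3 times, among them Slc2a1, Slc7a2, Slc15a3, Slc28a2 and Slc31a2, and 21 were lower at all 3, among them Slc1a5, Slc40a1, Slc46a3 and Slc26a11. Another 21 were lower at T6 only, including Slc43a2, Slc45a4 and Slc50a1, and 11 were higher at T6 only, including Slc16a1, Slc6a6 and Slc25a37. There were 10 that rose at T16 and T32 but not at T6, such as Slc11a1, Slc25a5 and Slc8a1, and 4 that fell at T6 and rose at both later times: Slc48a1, Slc36a1, Slc2a9 and Slc25a45. No call at any time was made for 19 members, such as Slc25a1, Slc38a2 and Slc30a1. These examples were chosen after their values were seen. The patterns were not counted over all genes tested. Since the comparisons at the 3 times share the T0 libraries, calls of the same direction at several times are not independent. The class with the largest share of the summed nRPKM of all members changed too. Mitochondrial carriers held 26.8% of it at T0 (26.3% to 27.5% over 3 libraries) and 16.2% at T6 (14.8% to 18.3%), while amino acid and peptide carriers went from 22.3% (21.7% to 23.3%) to 30.5% (26.6% to 33.1%) and sugar carriers from 5.72% (5.58% to 5.87%) to 14.6% (13.3% to 16%). No library at T6 overlapped one at T0 in these shares. The shares are parts of a total that changed: mitochondrial carriers summed to a mean of 667 nRPKM at T0 and 820 at T6. At T6, Slc2a6 alone gave 624 of the 748 nRPKM of sugar carriers. Slc15a3 gave 823 of the 1551 nRPKM of amino acid and peptide carriers.

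Carriers outside the symbol pattern, from a list of related proteins, were examined beside the members. Of 19 tested, 4 rose and 10 fell at T6 with TMM scaling. Alternative runs were not examined for them. The organic anion carrier Slco3a1 rose by 6.23 at T6 and 3.51 at T32 (edgeR adjusted p = 2.2e-11 and 8.1e-08). Its relative Slco2b1 went from 833, 791 and 1000 counts in the WT libraries at T0 to 20, 15 and 22 at T6 and to 0 to 2 at T16 and T32, and fell by 4.90 at T6 (edgeR adjusted p = 4.5e-11). The lysosomal cystine exporter Ctns fell by 2.14 and the lysosomal carrier Spns1 fell by 1.35 at T6 (edgeR adjusted p = 2.2e-11 and 2.1e-06). The pyruvate carrier subunit Mpc2 was at -0.46, without a call, and the mitochondrial uncoupling protein Ucp2 fell by 0.55 (edgeR adjusted p = 0.089 and 0.012).

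Sequences upstream of the start sites were read for the members. RefSeq promoters (GRCm38.p6) were matched for 108 members, and the 250 bases before each start site were searched on both strands for 7 short motifs. The interferon-stimulated response element core GAAANNGAA was present in 7 of the 108 (6.48%; 3 of the 39 that rose at T6, 7.69%, and 3 of the 40 that fell, 7.5%) and in 8.11% of 7506 promoters of expressed protein-coding genes. The NF-kB motif GGANNTTCC was present in 5.56% of members (7.69% of those that rose and 7.5% of those that fell) and in 4.82% of the expressed genes. The antioxidant response element core TGACNNNGC was present in 20.4% of members against 14.1%, the C/EBP-ATF motif TGATGNAA in 3.70% against 2.56%, and the E-box CACGTG in 20.4% against 10.5%; TTGCGCAA (C/EBP) and TCACGTGA, which contains an E-box core, were in 0% and 2.78% against 0.36% and 2.05%. A match is a run of letters and shows no binding. Windows with the match in capitals are given for the carriers that rose most among those with an interferon element (Slc25a22, Slc7a8), a copper importer and a light chain with an NF-kB match that rose (Slc31a1, Slc7a7; Slc7a6, which fell, also has one), and the cystine importer with 2 C/EBP-ATF matches (Slc7a11; the other lies on the opposite strand in the same window, in lower case). Each is written 5′ to 3′ on the gene's strand. The whole 250-base promoter of Slc28a2, the second most induced member, held none of the 7.
Slc25a22 (chr7:141435416-141435484, minus strand): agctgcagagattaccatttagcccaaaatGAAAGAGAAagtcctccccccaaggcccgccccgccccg
Slc7a8 (chr14:54781919-54781987, minus strand): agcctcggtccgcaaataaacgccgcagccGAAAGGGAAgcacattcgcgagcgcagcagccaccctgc
Slc31a1 (chr4:62360451-62360499, plus strand): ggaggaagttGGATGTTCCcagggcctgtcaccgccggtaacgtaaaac
Slc7a7 (chr14:54410379-54410447, minus strand): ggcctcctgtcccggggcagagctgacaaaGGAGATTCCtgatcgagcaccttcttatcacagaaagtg
Slc7a11 (chr3:50443642-50443709, minus strand): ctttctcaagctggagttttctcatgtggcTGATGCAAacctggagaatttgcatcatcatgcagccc
Slc28a2 (chr2:122426185-122426434, plus strand): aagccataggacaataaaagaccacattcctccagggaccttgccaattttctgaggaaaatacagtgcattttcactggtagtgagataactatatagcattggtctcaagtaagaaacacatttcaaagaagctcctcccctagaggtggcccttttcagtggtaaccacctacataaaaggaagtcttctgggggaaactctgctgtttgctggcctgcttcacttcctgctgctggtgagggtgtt

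Most LPS calls were shared by both genotypes. In libraries labelled KO, 50 members rose and 56 fell at T6 (73.6%; all genes 58.6% called, 26.2% higher and 32.4% lower), 48 rose and 34 fell at T16 (56.9%; all genes 43.7%, 20.4% higher and 23.3% lower), and 33 rose and 27 fell at T32 (41.7%; all genes 38.2%, 18.2% higher and 20.0% lower). Slc2a1 went from 3.23, 5.17 and 4.32 nRPKM to 102, 79.5 and 96.8 at T6, and Slc40a1 from 75.6, 49.7 and 66.5 to 3.20, 2.66 and 3.21. Neither gene's groups overlapped, and Slc2a1 rose by 4.35 ± 0.22 and Slc40a1 fell by 4.51 ± 0.22 (edgeR adjusted p = 2.8e-12 and 1.8e-12). Slc13a3 again had its highest level at T32, at 20.3, 16.9 and 13.8 nRPKM after 8.71, 4.68 and 6.87 at T6, and rose by 2.95 ± 0.43 from T0 (edgeR adjusted p = 2.1e-05). At T6, 97 members were called in both genotypes, 92.4% of the WT calls and 91.5% of the KO calls. At T16 the number was 64 (81.0% and 78.0%), and at T32 it was 50 (66.7% and 83.3%). All of them had the same direction in both. Across the 144 members the log2 changes of the genotypes, which share no library, correlated with Pearson r of 0.984 at T6, 0.932 at T16 and 0.897 at T32 (Spearman 0.98, 0.899 and 0.873), a description over genes that are not independent. The median absolute difference between the changes was 0.21, 0.26 and 0.24. Shared calls and correlations over all genes tested were not computed, so whether this sharing is particular to carriers is not known.

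**Figure D4:**
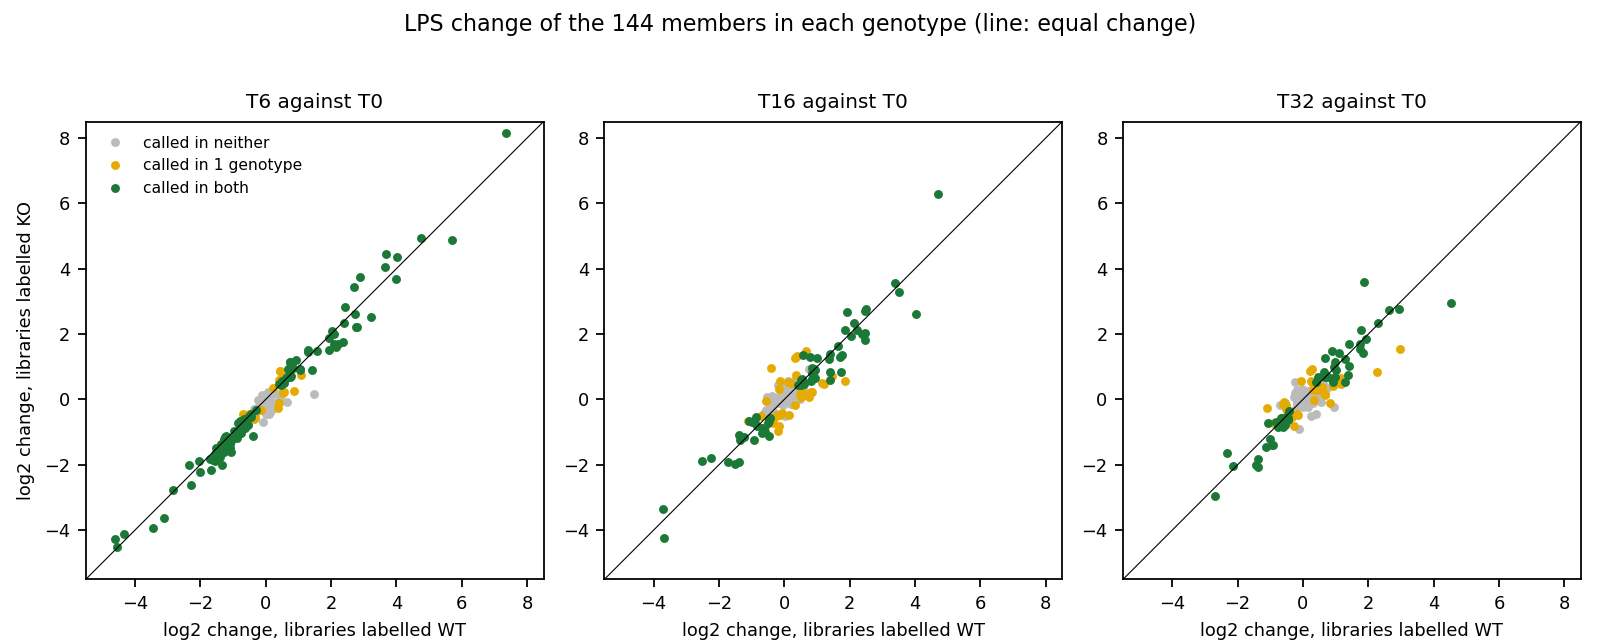
Log2 change from T0 of the 144 members in libraries labelled WT (horizontal axis) and KO (vertical axis) at T6, T16 and T32, coloured by the number of genotypes in which the change was called. The points lie along the line of equal change, with r from 0.984 at T6 to 0.897 at T32.

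Between genotypes, few members differed before LPS and none was called at T6. At T0, 3 of 144 were higher in libraries labelled KO and 0 were lower (2.08%; all genes 1.95%, 1.83% higher and 0.114% lower). These were Slc28a2, Slc25a22 and Slc31a2. Slc28a2 was at 18.5, 13.5 and 12.3 nRPKM in KO-labelled and 5.98, 4.40 and 4.94 in WT libraries, Slc25a22 at 31.6, 38.0 and 31.8 against 18.2, 23.7 and 14.7, and Slc31a2 at 79.1, 72.5 and 75.8 against 58.0, 49.5 and 37.7. No libraries overlapped, with log2 differences of 1.53 ± 0.26, 0.83 ± 0.18 and 0.64 ± 0.15 (edgeR adjusted p = 0.002, 0.014 and 0.022). Slc28a2 was called in every alternative run. Slc25a22 was not called without WT T0 replicate 1, WT T0 replicate 3 or KO T0 replicate 2 (0.82, 0.70 and 0.74), nor Slc31a2 without WT T0 replicate 2 or 3 or KO T0 replicate 1 or 3 (0.66, 0.51, 0.61 and 0.64). At T6, 0 members were called by edgeR (all genes 0.298%, 0.209% higher and 0.0887% lower) and 7 by DESeq2; 25 had an unadjusted edgeR p under 0.05. The lowest adjusted p at T6 were those of Slc25a45 (0.058, log2 difference -0.62 ± 0.14) and Slc44a1 (0.075, 0.64 ± 0.15) by edgeR.

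Markers of other cells differed between the genotypes as well. The 8 neutrophil and granulocyte precursor markers, none of them at 0 in any group, summed to 193 to 235 nRPKM in KO-labelled libraries and 101 to 189 in WT at T0, 191 to 272 against 104 to 165 at T6, 84.5 to 111 against 37.8 to 80.4 at T16, and 22.7 to 35.0 against 13.7 to 20.3 at T32. Stromal markers (6 of 6, none at 0) summed to 15.2 to 38.8 against 59.0 to 65.7 at T16 and overlapped at T0, T6 and T32. Erythroid markers, several of them at 0, were lower without overlap at T16 (0.264 to 0.279 against 0.482 to 0.808) and T32 (0.038 to 0.283 against 0.375 to 0.731). Dendritic cell markers were higher without overlap at T16 only (0.545 to 0.801 against 0.261 to 0.464). So were mast cell and basophil markers (0.941 to 2.09 against 0.612 to 0.782). T, B and NK cell markers stayed at or under 1.30 nRPKM in sum but were higher in KO-labelled libraries without overlap at T0 (0.972 to 1.30 against 0.371 to 0.593) and T16 (0.759 to 1.15 against 0.456 to 0.512). Macrophage markers summed to less in KO-labelled libraries without overlap at T16 (11438 to 11818 against 11992 to 16088) and T32 (11448 to 12143 against 12440 to 13488). The part of such cells in the differences below was not tested.

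At T16, 16 members differed between genotypes, 10 higher and 6 lower in libraries labelled KO (11.1%; all genes 7.64%, 4.16% higher and 3.48% lower). Slc28a2 was at 198, 135 and 196 nRPKM against 44.2 and 63.9 in WT, and Slc7a2 at 18.3, 12.4 and 20.8 against 7.07 and 4.19. All KO-labelled libraries lay above both WT libraries, by 1.69 ± 0.30 and 1.59 ± 0.28 (edgeR adjusted p = 0.0031 and 0.0031). Others that were higher were Slc16a1 (1.18 ± 0.28), Slc25a37 (1.18 ± 0.21), Slc23a2 (an ascorbate importer, 1.18 ± 0.30), Slc44a1 (1.01 ± 0.17) and Slc6a8 (the creatine importer, 0.91 ± 0.24). Lower were Slc25a4 (the ADP/ATP carrier ANT1), at 16.9, 21.2 and 17.5 against 34.7 and 32.2 nRPKM, and Slc9a9, at 1.30, 1.87 and 1.5 against 2.79 and 2.80. Their differences were -0.87 ± 0.15 and -0.86 ± 0.22 (edgeR adjusted p = 0.0024 and 0.024). Slc25a26 (the mitochondrial S-adenosylmethionine carrier), Slc29a1 and Slc35a4 were also lower, with log2 differences of -0.92, -0.48 and -0.41. These calls rest on the WT pair of libraries and on the spread pooled over all groups: fitted on the 5 libraries at T16 alone, 0 members were called by edgeR. Without WT T16 replicate 2, the library that stood apart, 4 of the 144 members were called, and without WT T16 replicate 1, 47. Slc28a2 was then at 1.97 and 1.46 and Slc25a4 at -0.93 and -0.80, called both times. Without replicate 2, Slc7a2 was at 1.25, Slc25a37 at 0.94, Slc44a1 at 0.81, Slc6a8 at 0.94, Slc16a1 at 0.77, Slc23a2 at 0.81, Slc9a9 at -0.87, Slc25a26 at -0.82, Slc29a1 at -0.31 and Slc35a4 at -0.36, none called (edgeR adjusted p from 0.071 to 0.42). Without replicate 1, Slc16a1 was at 1.79, and Slc6a8 at 0.87 without a call. Leaving out KO T16 replicate 1 ended the calls of Slc16a1, Slc23a2, Slc6a8, Slc9a9 and the last-named lower members (Slc16a1 1.11, Slc23a2 1.10, Slc6a8 0.94, Slc9a9 -0.74, Slc25a26 -0.85, Slc29a1 -0.48 and Slc35a4 -0.38). Leaving out KO T16 replicate 3 ended those of Slc16a1 (1.11), Slc6a8 (0.80), Slc9a9 (-0.83), Slc29a1 (-0.43) and Slc35a4 (-0.41).

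At T32, where each genotype had 3 libraries, 15 members differed, 11 higher and 4 lower in libraries labelled KO (10.4%; all genes 6.39%, 3.05% higher and 3.34% lower). Slc7a2 was at 2.78, 2.15 and 2.84 nRPKM against 0.814, 0.614 and 0.912 in WT, and Slc28a2 at 92.7, 115 and 97.4 against 32.2, 25.7 and 59.0. Slc25a37 was at 51.8, 51.1 and 51.9 against 28.5, 27.1 and 28.0, and Slc6a8 at 47.4, 48.0 and 53.3 against 26.1, 18.1 and 22.7. None of the 4 overlapped, and they differed by 1.72 ± 0.25, 1.37 ± 0.26, 0.87 ± 0.19 and 1.14 ± 0.21 (edgeR adjusted p = 0.00032, 0.003, 0.0074 and 0.0025). Slc22a4 (OCTN1, an ergothioneine importer) showed a difference of 0.98 ± 0.24 (edgeR adjusted p = 0.017), which was no longer called without WT T32 replicate 2 or 3 or KO T32 replicate 1 or 2 (0.89, 0.93, 0.91 and 0.94). The lower members were Slc13a3, Slc9a9, Slc25a4 and Slc12a7. Slc9a9 was at 7.31, 7.01 and 6.45 nRPKM against 12, 15.8 and 12.8, and Slc25a4 at 22.6, 23.3 and 22.4 against 41.5, 40.4 and 30.7. Their log2 differences were -0.99 ± 0.20 and -0.74 ± 0.13 without overlap (edgeR adjusted p = 0.0044 and 0.0021). Slc13a3 was at 20.3, 16.9 and 13.8 against 26.2, 53.5 and 55.8 (-1.43 ± 0.40, edgeR adjusted p = 0.037), and its call was lost without any of 5 T32 libraries, at -1.25 without WT T32 replicate 3, -1.28 without WT T32 replicate 2, and -1.30, -1.42 and -1.57 without KO T32 replicates 3, 2 and 1.

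**Figure D5:**
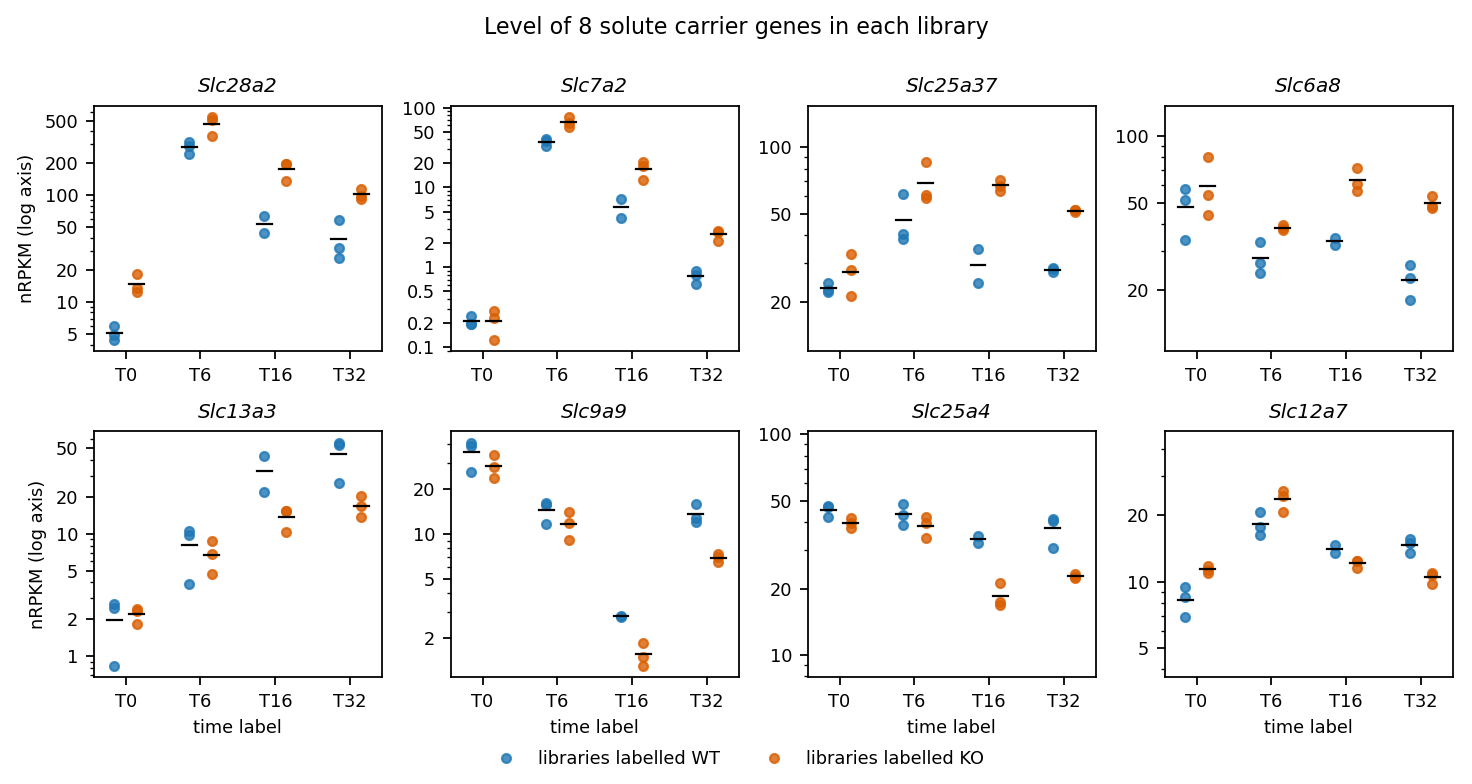
nRPKM (log axis) of 8 members in each library at T0, T6, T16 and T32 (horizontal axis); points are libraries labelled WT (blue) or KO (orange) and bars are group means. At T32 the KO-labelled libraries lie above all WT libraries for Slc28a2, Slc7a2, Slc25a37 and Slc6a8, and below them for Slc13a3, Slc9a9, Slc25a4 and Slc12a7.

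Averaged over the 4 time points, 24 members were higher and 21 lower in libraries labelled KO (31.2%; all genes 22.3%, 12.1% higher and 10.3% lower). The share among expressed protein-coding genes alone was not computed for this average. Nucleoside, vitamin and choline carriers were higher in 6 of 10 and lower in 1, and mitochondrial carriers lower in 8 of 31 and higher in 3. The largest average differences upward were those of Slc28a2 (1.32 ± 0.13), Slc7a2 (1.03 ± 0.13), Slc25a37 (0.70 ± 0.10), Slc6a8 (0.70 ± 0.11), Slc44a1 (0.64 ± 0.08), Slc31a1 (0.58 ± 0.09), Slc7a8 (0.54 ± 0.08) and the scaffold Slc9a3r1 (0.51 ± 0.08; edgeR adjusted p = 1.8e-06 to 0.00018). Each of these calls held in every alternative run of this average. Downward, Slc9a9 (-0.63 ± 0.10), Slc25a4 (-0.50 ± 0.07) and the glutamine exchanger Slc1a5 (-0.40 ± 0.10) likewise kept theirs (edgeR adjusted p = 0.00019, 4e-05 and 0.0071). None of those runs took account of the sets in which sample numbers run across times. Deviations from group means correlated within a set (median 0.347 in WT and 0.12 in KO-labelled libraries). If libraries of a set are not independent, the p-values of the average are too small. Slc13a3 (-0.71 ± 0.21), the zinc importers Slc39a4 (-0.56 ± 0.18) and Slc39a13 (-0.43 ± 0.13) and the dicarboxylate carrier Slc25a10 (-0.42 ± 0.12) were not called without WT T16 replicate 2, at -0.57, -0.47, -0.30 and -0.28 (edgeR adjusted p = 0.077, 0.11, 0.13 and 0.078); the call of Slc39a13 was also lost without KO T6 replicate 3 or WT T0 replicate 1 (-0.40 and -0.39), and that of Slc39a4 without any 1 of 10 libraries. Slc7a6 had a difference of -0.40 ± 0.11, and of -0.22 without WT T16 replicate 1. Without the 4 WT libraries that carried Y-linked transcripts, 27 members were called. Among the light chains of Slc3a2, the genotype difference in Slc7a8 was matched by no call for Slc3a2 itself (0.20 ± 0.10, edgeR adjusted p = 0.16), Slc7a7 (0.19 ± 0.13) or Slc7a11 (0.02 ± 0.12). At T32 Slc3a2 was nevertheless at 259, 248 and 274 nRPKM in KO-labelled and 181, 148 and 183 in WT libraries, apart but not called. Its groups overlapped at T0, T6 and T16. The average differences of the iron carriers Slc40a1, Slc11a1 and Slc39a14 were 0.01 ± 0.10, 0.05 ± 0.08 and 0.15 ± 0.09, and those of the glucose carriers Slc2a1 and Slc2a6 were -0.04 ± 0.10 and -0.04 ± 0.11, none called. For the iron importer Slc11a2 the average difference was 0.19 ± 0.06 (edgeR adjusted p = 0.023), called except with library totals (0.02) or with no filter (0.19).

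The genotype difference of 1 member changed with LPS in the edgeR test. The potassium-chloride cotransporter Slc12a7 (KCC4) was the only 1 of 144 called in the joint test over T6, T16 and T32 (0.694%; all genes 0.456%; edgeR adjusted p = 0.022). No member passed that test when any 1 of 5 T32 libraries was left out, without the filter on low counts, without the 4 WT libraries carrying Y-linked RNA, or without KO T0 replicate 1 and WT T16 replicate 2 together (0 called in each). DESeq2 called 7, and a fit with sets of libraries as a block called 4, Slc12a7 among them. In libraries labelled KO, Slc12a7 was at 11.8, 11.3 and 10.9 nRPKM at T0 and 11, 10.7 and 9.78 at T32, and in WT at 9.46, 8.48 and 6.90 and 13.5, 14.9 and 15.6. KO-labelled libraries were thus above WT at T0 and below WT at T32, without overlap at either time. The difference was 0.45 ± 0.12 at T0 and -0.50 ± 0.12 at T32 (edgeR adjusted p = 0.072 and 0.017). The call at T32 was lost without KO T32 replicate 2 or 3 or WT T32 replicate 2 or 3 (-0.52, -0.46, -0.49 and -0.46). For Slc7a2, the next member by p, the joint test gave edgeR adjusted p = 0.1.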

How the data were processed

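Gene-level values of 23 polyadenylated RNA-seq libraries were used. The submitters' processing notes name the aligner GSNAP and the genome GRCm38, without versions. The deposited counts are, per the file headers, reads aligning uniquely to each gene model. The deposited RPKM values are, per the file headers, adjusted by the authors with a size factor per library (nRPKM), whose derivation is not stated. They served for levels, and the counts for tests. The 2 scales differed by at most 0.11 in log2 change.

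All libraries entered 1 edgeR 4.0.16 quasi-likelihood fit (robust, TMM scaling, filterByExpr; R 4.3.3) with a mean per group; p-values were Benjamini-Hochberg adjusted over 15782 genes, and genes under 0.05 were called. In simulated counts with 15782 genes, 43% of 2-fold and 78% of 4-fold changes were recovered for KO against WT at T0, with 5 false calls among 15383 genes. Library totals of 19455080 to 44097733 counts and 2 or 3 libraries per group set the precision. Alternatives were DESeq2 1.42.0, other scalings, no filter, smaller fits, Y-linked transcripts, other membership limits, each library left out, and, added later, a block for sets of libraries. Gene positions and overlaps came from GENCODE (GRCm38).

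Members, classes and lists were chosen with earlier results of these data known. Named genes were the 8 largest changes in each direction at T6 (5 at T16 and T32) among called members whose groups did not overlap, the 5 largest genotype differences per time and 8 on average, the 10 most abundant members, preset carriers of known function, and class examples chosen after their values were seen. One called member is not reported here by name.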

Additional observations from a re-analysis of the deposited data

Results flagged for a closer look

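The genotype difference of the potassium-chloride cotransporter Slc12a7 changed with LPS by −0.11 ± 0.17 (log2, SE) from T0 to T6, −0.67 ± 0.18 to T16 and −0.95 ± 0.17 to T32 (edgeR adjusted p = 1, 0.18 and 0.014). It drew attention because the test of the difference itself, an interaction of genotype and time, was passed jointly over the 3 times (edgeR adjusted p = 0.022), as it was for 0.456% of all genes tested. Its nRPKM was 20.7, 17.8 and 16.2 in WT and 25.7, 20.7 and 24.5 in KO-labelled libraries at T6, and 13.4 and 14.6 and 12.4, 11.6 and 12.4 at T16. No member passed the joint test when KO T32 replicate 1, 2 or 3 or WT T32 replicate 2 or 3 was left out (0 called), and 10 did without WT T16 replicate 1.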

How the results depend on the processing

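Counts of called members stayed within 1.5 times of those reported for the LPS comparisons under every alternative run, except 51 at T16 in WT without the libraries with Y-linked transcripts. Genotype counts moved more. At T0, DESeq2 called 8, the Y-linked covariate gave 7, a fit of only the groups compared 1, and single libraries left out 1 to 6. At T6, DESeq2 called 7, library totals 5, the fit without KO T0 replicate 1 and WT T16 replicate 2 gave 4, and single libraries left out 0 to 2. At T16, DESeq2 called 33, library totals 25, the fit without that pair 4, that without Y-linked libraries 3 and that of only the groups compared 0; single libraries left out gave 4 to 47 (4 without WT T16 replicate 2, 47 without WT T16 replicate 1, 6 and 7 without KO T16 replicates 1 and 3, and 29 without KO T6 replicate 2). At T32 the fit of only the groups compared called 44, and on average that without Y-linked libraries called 27. The joint test called 7 with DESeq2, 0 without that pair, without the filter or without Y-linked libraries, and 0 to 10 with single libraries left out. The cause of these shifts was not tested.

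Library totals turned these changes: in WT at T6 Slc16a10 (−0.42), Slc30a7 (−0.076), Slc3a2 (−0.30), Slc7a1 (−0.16), Slc7a5 (−0.051) and Slc9a3r1 (−0.066); in WT Slc35a4 at T16 (−0.11) and Slc30a7 at T32 (−0.004); in KO-labelled libraries at T6 Slc25a1 (−0.24), Slc3a2 (−0.26) and Slc7a1 (−0.18), and at T16 Slc25a51 (−0.12). Members then divided, higher and lower, as 25 and 92 (T6), 30 and 54 (T16) and 23 and 53 (T32) in KO-labelled libraries, and as 8 and 17 (T16), 8 and 13 (T32) and 11 and 48 (average) between genotypes, with medians over all genes of −1.0, −0.50 and −0.37, and from −0.15 to −0.20. Of the named members called, 57 of 70 (WT T6), 38 of 58 (WT T16), 37 of 55 (WT T32), 0 of 15 (genotype at T16), 9 of 15 (genotype at T32) and 16 of 40 (genotype on average) were called in every alternative. Replicate numbers here were given in accession order and pair nothing, but sample numbers in the labels run in sets across times, and the WT library with Y-linked transcripts always fell in the third set. Gene-wise deviations from group means correlated with a median of 0.347 between WT libraries of the same set (over 0.1 in 14 of 15 pairs) and 0.12 in KO-labelled ones (10 of 18). With these sets as a replicate block within genotype, chosen after seeing the data, 108, 77 and 79 members were called in WT and 110, 86 and 67 in KO-labelled libraries at T6, T16 and T32, and 4 in the joint test. Among named members, Slc25a3 (−0.52), Slc35a4 (0.32) and Slc8a1 (2.0) lost their calls in WT at T16. Genotype differences cannot be estimated with that block. With 2 or 3 libraries per group, simulated 2-fold differences at T16 were recovered in 43%, so members without a call may still differ.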

Other observations

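Further members outside the named sets changed in WT cells. Slc25a43, a mitochondrial carrier encoded on the X chromosome, went from 1.37, 1.21 and 1.59 nRPKM at T0 to 7.26, 7.91 and 7.88 at T6 and rose by 2.37 ± 0.20 (edgeR adjusted p = 3.9e-09). The urate and fructose carrier Slc2a9 (GLUT9) went down and then up, with 4.33, 3.89 and 3.71 nRPKM at T0, 2.33, 2.0 and 2.36 at T6 and 7.57 and 7.68 at T16 (log2 changes -0.92 ± 0.14 and 0.93 ± 0.15; edgeR adjusted p = 8.3e-06 and 5e-05). The zinc importer Slc39a8 (ZIP8) was called at T16 but not at T6 or T32 (-0.98 ± 0.31, edgeR adjusted p = 0.018), while Slc39a1 (ZIP1) was higher at all 3 times, by 1.56 ± 0.15 at T6 (edgeR adjusted p = 2e-08). The carnitine importer Slc22a5 (OCTN2) fell by 0.50 ± 0.19 at T6 (edgeR adjusted p = 0.033). These members were chosen after their values were seen.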
